A study of Arabidopsis thaliana with 8 samples.

Results

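The genes described here are the 43 nuclear genes of Arabidopsis that encode light-harvesting proteins and small subunits of the 2 photosystems, out of 23050 loci with a value. They were taken by locus identifier from a set list of 6 LHCA genes (antenna of photosystem I), 14 LHCB genes (antenna of photosystem II), 12 PSA genes (subunits of photosystem I) and 11 PSB genes (subunits of photosystem II). All 43 had a value in all 6 libraries and passed the minimum mean of 0.1 FPKM (fragments scaled to transcript length and to the mapped fragments of the library) for testing. The RNA came from rosette leaves of 6-week-old plants of 2 groups, with 3 libraries from independent biological replicates in each. The first is the *kaku4* mutant, a single T-DNA insertion line in KAKU4 that the labels name *kaku4*-2, and the second is WT (the labels' col). No treatment is stated for either. KAKU4 encodes a protein of the plant nuclear lamina, the meshwork under the inner nuclear envelope. The study was made to ask about leaf senescence, and the comparison here asks how the transcripts of the photosystem genes differed between the genotypes.

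Photosystem II uses light to take electrons from water and photosystem I uses light to pass them on to ferredoxin. Their chlorophyll-binding cores are encoded in the chloroplast, whereas the antenna proteins and most small subunits are encoded in the nucleus, made in the cytosol and imported. In green leaves these nuclear genes are among the most highly transcribed, and their transcripts are known to decline as leaves age. Among the 43, PSBR had the highest mean FPKM of all nuclear loci, LHCB1.5 ranked 2 and LHCB1.2 ranked 3. LHCB4.3 ranked 3345 and was the lowest of the 43.

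The mutated gene itself had 0.739, 1.26 and 0.943 FPKM in *kaku4* and 6.41, 5.45 and 5.71 FPKM in WT (KAKU4, AT4G31430, log2 fold change -2.49, adjusted p = 0.00019 by limma with Benjamini-Hochberg adjustment). The FPKM values of nuclear loci summed to between 952436 and 1157890 in the *kaku4* libraries and between 1411180 and 1519610 in the WT libraries, so a level in FPKM and a share of the library are not the same quantity here. Chloroplast loci summed to 30587 FPKM in *kaku4* replicate 1 and 44363 FPKM in WT replicate 1, and to between 499 and 945 FPKM in the other 4 libraries. A single locus, ATCG01020, made up 26752 and 38884 FPKM of the 2 high sums and was listed at 0 to 249 FPKM in the other 4 libraries. The 6 mesophyll markers, which mark the green cells of the leaf, were all detected and summed to between 32784 and 34668 FPKM in *kaku4* and between 27779 and 33792 FPKM in WT. Of these markers only RCA, the Rubisco activase gene, passed the test, and it was higher in *kaku4* (log2 fold change 0.70, adjusted p = 0.0239 by limma with Benjamini-Hochberg adjustment). RBCS1A, a small subunit of Rubisco, had a log2 fold change of 0.26 (adjusted p = 0.459) and RBCS3B of -0.045 (adjusted p = 0.879). RBCS1B (-0.43, adjusted p = 0.0994) and CA1 (-0.42, adjusted p = 0.0643) were below WT in every library. RCA and RBCS2B (0.33, adjusted p = 0.167) were above WT in every library. The 3 phloem markers summed to between 80.0 and 98.2 FPKM in *kaku4* and between 46.3 and 51.7 FPKM in WT, with SUC2 and AHA3 higher. Of 3 guard cell markers MYB60 was lower (-0.78, adjusted p = 0.0187). KAT1 (0.73, adjusted p = 0.0719) and HT1 (1.14, adjusted p = 0.0998) had positive changes that did not pass. Of 2 root markers PYK10 was higher (1.17, adjusted p = 0.00144), while CASP1 had a negative change that did not pass (-0.80, adjusted p = 0.345). None of 3 epidermis markers passed the test. The 4 flower markers summed to between 0.333 and 0.508 FPKM in *kaku4* and between 1.53 and 2.04 FPKM in WT, with PI, AG and SEP3 lower, and the 2 seed markers with a value, CRA1 and OLEO1, were too low to test. The part of these differences in the results below was not tested.

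Of the 43 genes, 7 were lower in *kaku4* by the fold criterion, a log2 fold change of 1 or more in size and an adjusted p of 0.05 or less (limma on log2(FPKM + 0.1), Benjamini-Hochberg adjustment over 20618 genes), where 11.5% of all genes tested were called lower. The 7 were LHCA5, PSAE1, PSAE2, PSAH2, PSAK, PSBR and PSBTN. No member was called higher by this criterion, against 16.4% of all genes (2 were higher at an unadjusted p under 0.05). By the adjusted p alone, 17 members were lower and 2 were higher, LHCB4.3 and PSAF, and the other 24 did not pass. Over all genes tested 28.3% were lower and 28.6% were higher at that threshold. In 29 members every *kaku4* library was below every WT library, and in 3 every *kaku4* library was above, where the shares over all genes were 31.3% and 33.5%. The 7 calls became 3 without *kaku4* replicate 2 and 4 without *kaku4* replicate 3 or WT replicate 3, and the 17 became 8 without *kaku4* replicate 3 and 9 without WT replicate 2 or WT replicate 3. In leaf RNA, fewer cells of a type and less RNA per cell cannot be told apart.

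The split of these calls depended on how the libraries were scaled. With the FPKM values as deposited, 17 members were lower and 2 higher by the adjusted p. Centring the libraries on their medians, which moved the median of all genes to -0.19, gave 21 lower and 1 higher. Over all 20618 genes tested, 7174 were then lower and 4778 higher. Scaling the libraries to the same nuclear sum, which moved the median of all genes to 0.48, gave 9 lower and 8 higher. Of the 20618 genes tested, 2234 were then lower and 8676 higher. Quantile normalization gave 6 lower and 9 higher, where 5250 were lower and 5259 higher over all genes. By the fold criterion 12 members were lower after centring, and 0 were lower and 2 higher after either of the other scalings. Over all genes that criterion called 3846 lower and 2302 higher after centring. It called 418 lower and 6195 higher after scaling to the nuclear sum, and 2060 lower and 2533 higher after quantile normalization. The median log2 fold change of the 43 was -0.62 as deposited, with a median of 0.0021 over all genes tested, and -0.65 without LHCB1.3, whose zeros are described below. Relative to the median of all genes, the members' median was -0.62 after centring, -0.59 after scaling to the nuclear sum and 0.00063 after quantile normalization. The plot of transcript levels by library shows the values as deposited.

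**Figure D1:**
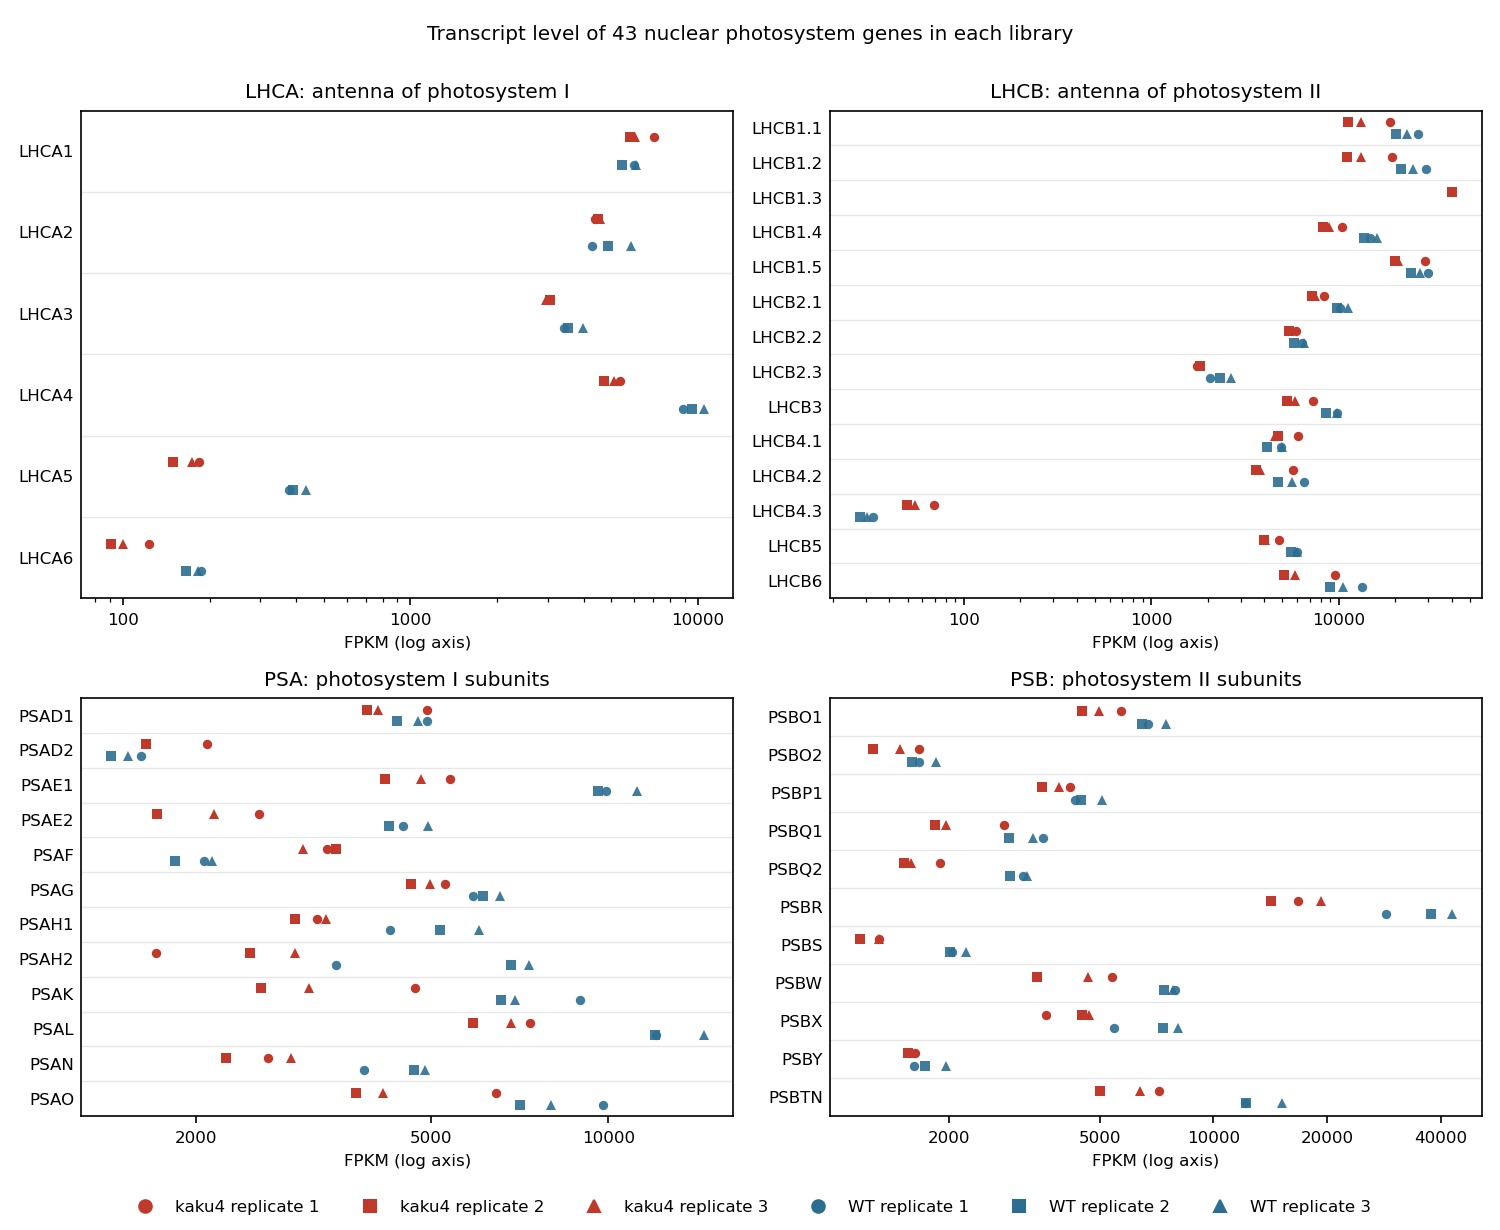
Transcript level (FPKM, log axes, a separate range in each panel) of the 43 genes, 1 row per gene and 1 point per library, with *kaku4* in red above WT in blue and the replicate number given by the marker. In most rows the *kaku4* points lie left of the WT points, whereas LHCB4.3 and PSAF lie the other way, and for LHCB1.3 only *kaku4* replicate 2 is drawn because the other 5 libraries are listed at 0.

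LHCA5, LHCB4.3 and PSBQ2 were the 3 members that kept their direction with an adjusted p of at most 0.05 in all 21 alternative fits, that is under every other scaling, filter, model and leave-one-out fit. Over all genes tested 7.17% were lower and 11.4% were higher in that way, and 2 lower (4.65%) and 1 higher (2.33%) of the 43 members lie under both shares. The 250 bases before the annotated transcript start of these 3 genes, from the RefSeq annotation of TAIR10.1, are shown 5′ to 3′ on the strand of the gene because they are the members that passed the adjusted p in the same direction in each of these fits. Their size did vary between fits, so that the fold criterion was met by LHCA5 as deposited but not with the length trend removed (-0.56), and by LHCB4.3 with that trend removed (1.29) but not as deposited (0.92). Capitals mark matches to any of 4 motifs on either strand. The G-box is spelled CACGTG. For the I-box the letters searched were GATAAG. The box of the CCAAT kind was searched as CCAATC. For the TATA box the search used TATAAA.
LHCA5, chr1:17179000-17179249, plus strand: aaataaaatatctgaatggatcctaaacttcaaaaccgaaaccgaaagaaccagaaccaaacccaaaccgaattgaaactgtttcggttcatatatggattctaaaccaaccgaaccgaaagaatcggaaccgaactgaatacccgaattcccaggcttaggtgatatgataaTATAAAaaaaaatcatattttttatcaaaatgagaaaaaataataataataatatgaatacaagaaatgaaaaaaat
PSBQ2, chr4:2673244-2673493, minus strand: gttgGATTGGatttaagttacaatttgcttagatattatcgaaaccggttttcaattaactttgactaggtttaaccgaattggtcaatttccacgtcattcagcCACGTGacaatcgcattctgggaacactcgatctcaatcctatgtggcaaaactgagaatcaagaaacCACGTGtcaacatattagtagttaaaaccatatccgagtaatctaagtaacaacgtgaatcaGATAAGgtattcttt
LHCB4.3, chr2:16745378-16745627, plus strand: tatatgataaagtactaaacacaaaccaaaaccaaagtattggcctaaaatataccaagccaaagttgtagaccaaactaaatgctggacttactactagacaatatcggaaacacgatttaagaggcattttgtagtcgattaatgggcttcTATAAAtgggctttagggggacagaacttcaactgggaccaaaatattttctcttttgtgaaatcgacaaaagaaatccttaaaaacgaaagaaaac
The PSBQ2 window held the G-box, the I-box and the CCAAT-kind box and no TATA box, whereas the windows of LHCA5 and LHCB4.3 held only the TATA box. Over the 43 genes, the G-box was found in 9 windows (20.9%, against 7.36% of the 20463 windows of genes tested), the I-box in 9 (20.9%, against 12.4%), the CCAAT-kind box in 11 (25.6%, against 10.5%) and the TATA box in 19 (44.2%, against 46.2%). The 4 motifs are different words on both strands, so no match counted for more than 1 of them. These are matches of letters in a window and not sites.

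Of the 6 LHCA genes, 3 were lower in *kaku4* and none was higher, against 28.3% and 28.6% of all genes tested. The group's median was -0.52 on the log2 scale. With the trend of fold change with transcript length removed, as described below, 2 were lower and 1 was higher, with a median of -0.083. Over all genes tested 20.0% were then lower and 20.2% higher. LHCA1 to LHCA4 encode the antenna belt on 1 side of photosystem I, in which LHCA1 pairs with LHCA4 and LHCA2 with LHCA3. LHCA5 and LHCA6 encode minor antenna proteins that join photosystem I to the NADH dehydrogenase-like complex. LHCA5 (AT1G45474, chromosome 1, 17179250 to 17180806 on TAIR10.1, 6 exons) had 184, 149 and 174 FPKM in *kaku4* and 378, 389 and 432 FPKM in WT. Every *kaku4* library was under every WT library, and the *kaku4* mean was 42.3% of the WT mean. The log2 fold change was -1.24 (SE 0.14, adjusted p = 0.000375 by limma with Benjamini-Hochberg adjustment), the largest fall in the group, and ranged from -1.59 to -0.56 over the 21 alternatives. LHCA6 (AT1G19150) had 123, 90.8 and 100 FPKM in *kaku4* and 186, 165 and 182 FPKM in WT, also without overlap (log2 fold change -0.77, SE 0.14, adjusted p = 0.00252).

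LHCA4 (AT3G47470) had 5342, 4711 and 5109 FPKM in *kaku4* and 8878, 9552 and 10472 FPKM in WT, so that its *kaku4* mean was 52.5% of the WT mean with no overlap. Its log2 fold change was -0.93 (SE 0.23, adjusted p = 0.0087), and it kept an adjusted p of at most 0.05 in 19 of the 21 alternatives. Its partner LHCA1 (AT3G54890) had 7039, 5781 and 6037 FPKM in *kaku4* and 6014, 5448 and 6097 FPKM in WT, overlapping ranges, the log2 fold change being 0.10 (SE 0.22, adjusted p = 0.725). LHCA2 had a log2 fold change of -0.15 and LHCA3 of -0.26, and neither passed the test. The partner genes LHCA1 and LHCA4 thus lay on different sides of the threshold, but the difference between their changes was not tested.

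Of the 14 LHCB genes, none was lower by the adjusted p of limma (3 were at an unadjusted p under 0.05) and 1, LHCB4.3, was higher. Over all genes tested 28.3% were lower and 28.6% higher at that threshold. The median log2 fold change was -0.41, where that of all genes was 0.0021. It was 0.11 after scaling to the nuclear sum and 0.14 after quantile normalization, where the medians of all genes were 0.48 and -0.039. In 7 of the 14 every *kaku4* library was below every WT library in the values as deposited. LHCB1, LHCB2 and LHCB3 build the trimers that hold most of the chlorophyll of photosystem II. For LHCB1.4 (AT2G34430) the values were 10466, 8253 and 8859 FPKM in *kaku4* and 14630, 13704 and 15907 FPKM in WT, the log2 fold change being -0.69 (SE 0.27, adjusted p = 0.0537). LHCB3 (AT5G54270) had 7293, 5313 and 5863 FPKM in *kaku4* and 9821, 8577 and 9833 FPKM in WT, the log2 fold change being -0.62 (SE 0.25, adjusted p = 0.0602). Both genes separated the genotypes without passing the threshold as deposited, and each passed it in 7 of the 21 alternatives. The 3 LHCB2 genes had log2 fold changes of -0.44 (LHCB2.1), -0.15 (LHCB2.2) and -0.38 (LHCB2.3), and LHCB1.5, which had 20036 to 28689 FPKM in *kaku4* and 24209 to 29897 FPKM in WT, had -0.24.

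LHCB1.1, LHCB1.2 and LHCB1.3 stand side by side on chromosome 1 (10472280 to 10479114 on TAIR10.1, 1 exon each) and are close in sequence. Their single values are reported as uncertain, and the part of this closeness in them was not tested. LHCB1.3 (AT1G29930) was listed at 0 in *kaku4* replicates 1 and 3 and in all 3 WT replicates, and at 40368 FPKM in *kaku4* replicate 2. No mean or fold change is given for it. The coding sequences of the 3 genes are 804 bases each and differ at 35 positions between LHCB1.1 and LHCB1.2, at 31 between LHCB1.1 and LHCB1.3 and at 29 between LHCB1.2 and LHCB1.3, so they are 95.6% to 96.4% identical. A stretch of 60 coding bases, from base 25 to base 84 counted from the first coding base, is shown so that the 3 genes can be compared, and it holds more differences for its length than the coding sequence as a whole. Capitals mark the 8 positions in it at which the 3 genes are not all the same, of 47 such positions in the whole coding sequence.
LHCB1.1: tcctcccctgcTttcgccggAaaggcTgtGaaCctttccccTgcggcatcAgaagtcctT
LHCB1.2: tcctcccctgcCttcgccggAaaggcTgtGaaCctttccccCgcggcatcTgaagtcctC
LHCB1.3: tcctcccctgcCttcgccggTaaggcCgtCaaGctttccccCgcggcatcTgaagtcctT
LHCB1.1 and LHCB1.2 had nearly the same values as each other in every library, with 18656, 11230 and 13059 FPKM for LHCB1.1 in *kaku4* against 26610, 20171 and 23053 FPKM in WT. Summed, LHCB1.1 and LHCB1.2 had 37772, 22313 and 26125 FPKM in *kaku4* and 55856, 41713 and 47870 FPKM in WT, without overlap. Over all 5 LHCB1 genes, with LHCB1.3 included, the sums were 76927, 90970 and 55771 FPKM in *kaku4* and 100383, 79625 and 91044 FPKM in WT, and the ranges overlapped because of *kaku4* replicate 2. By limma with Benjamini-Hochberg adjustment, LHCB1.1 had a log2 fold change of -0.73 (adjusted p = 0.0904) and LHCB1.2 of -0.83 (adjusted p = 0.0646).

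LHCB4, LHCB5 and LHCB6 encode the single antenna proteins that link the trimers to the core of photosystem II. LHCB4.3 (AT2G40100, chromosome 2, 16745628 to 16747424, 2 exons) is the least abundant of the 3 LHCB4 genes. It had 68.9, 49.5 and 54.7 FPKM in *kaku4* and 32.7, 27.8 and 30.3 FPKM in WT. Every *kaku4* library was above every WT library, and the *kaku4* mean was 191% of the WT mean. The log2 fold change was 0.92 (SE 0.15, adjusted p = 0.00144) and ranged from 0.52 to 1.43 over the 21 alternatives. LHCB4.1, which was close to LHCB4.2 in level, had 6072, 4735 and 4588 FPKM in *kaku4* and 4900, 4161 and 4995 FPKM in WT, a log2 fold change of 0.12 (adjusted p = 0.664). LHCB4.2 had a log2 fold change of -0.38, LHCB5 of -0.45 and LHCB6 of -0.72 (SE 0.32, adjusted p = 0.0842). LHCB6 had 9506, 5084 and 5824 FPKM in *kaku4* and 13371, 8999 and 10515 FPKM in WT, with replicate 1 the highest in both genotypes and overlapping ranges.

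Of the 12 PSA genes, 8 were lower and 1 was higher in *kaku4*, against 28.3% and 28.6% of all genes tested. The median log2 fold change was -0.80. It was -0.29 after scaling to the nuclear sum and -0.23 after quantile normalization, where the medians of all genes were 0.48 and -0.039. With the length trend removed none was lower and 4 were higher, against 20.0% and 20.2% of all genes, and the median was -0.17. On the stromal side of photosystem I, PSAD and PSAE encode subunits that dock ferredoxin. PSAE1 (AT4G28750) had 5381, 4175 and 4819 FPKM in *kaku4* and 9926, 9624 and 11183 FPKM in WT, for a log2 change of -1.10 (SE 0.24, adjusted p = 0.00476). PSAE2 (AT2G20260) had 2558, 1717 and 2141 FPKM in *kaku4* and 4488, 4238 and 4947 FPKM in WT, for a log2 change of -1.11 (SE 0.22, adjusted p = 0.00323). Both PSAE genes were at 46.8% and 46.9% of their WT means, with no overlap. PSAD1 had a log2 fold change of -0.13 (adjusted p = 0.625). PSAD2 had 2083, 1642 and 1642 FPKM in *kaku4* and 1609, 1433 and 1533 FPKM in WT, above WT in every library but with a log2 fold change of 0.22 that did not pass the test (adjusted p = 0.315).

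On the lumenal side, PSAF and PSAN encode subunits that receive plastocyanin, and as deposited 1 of these genes was higher and the other lower. PSAF (AT1G31330) had 3331, 3451 and 3030 FPKM in *kaku4* and 2061, 1842 and 2128 FPKM in WT, with every *kaku4* library above every WT library. Its log2 fold change was 0.70 (SE 0.18, adjusted p = 0.0111), with an adjusted p of at most 0.05 in 18 of the 21 alternatives and values between 0.30 and 1.29. PSAN (AT5G64040) had 2647, 2242 and 2890 FPKM in *kaku4* and 3852, 4673 and 4895 FPKM in WT, for a log2 change of -0.79 (SE 0.21, adjusted p = 0.013). The PSAN ranges did not overlap either, but it passed in 14 of the 21 alternatives, and with the length trend removed it was at -0.13 (adjusted p = 0.546) with overlapping ranges.

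At the edge where photosystem I binds its own antenna, PSAK (AT1G30380) had 4700, 2579 and 3110 FPKM in *kaku4* and 8951, 6573 and 6937 FPKM in WT. Its log2 fold change was -1.15 (SE 0.29, adjusted p = 0.00917), while PSAG, its relative at the same edge, had -0.32 (SE 0.21, adjusted p = 0.235). On the opposite edge, where PSAH, PSAL and PSAO form the dock for trimers that move over from photosystem II, all 4 genes were lower and without overlap in the values as deposited. PSAH2 (AT1G52230) had 1710, 2471 and 2938 FPKM in *kaku4* and 3457, 6845 and 7338 FPKM in WT, the largest fall of the 43 at -1.27 on the log2 scale (SE 0.34, adjusted p = 0.0131). Replicate 1 was the lowest library of its genotype for PSAH2. PSAH1 had a log2 change of -0.70 (SE 0.22, adjusted p = 0.0253), PSAL of -0.94 (SE 0.25, adjusted p = 0.013) and PSAO of -0.82 (SE 0.29, adjusted p = 0.0376). With the length trend removed none of the 4 passed, with PSAH1 at -0.31 (adjusted p = 0.157), PSAH2 at -0.41 (adjusted p = 0.443), PSAL at -0.33 (adjusted p = 0.116) and PSAO at -0.028 (adjusted p = 0.912), and the genotypes then overlapped for all but PSAL. Of the 21 alternatives PSAH2 passed in 16, PSAL in 15, PSAH1 in 12 and PSAO in 11. PSAL had 7376, 5906 and 6830 FPKM in *kaku4* and 12060, 12025 and 14523 FPKM in WT.

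Of the 11 PSB genes, 6 were lower in *kaku4* and none was higher, against 28.3% and 28.6% of all genes tested. All 11 log2 fold changes were negative, with a median of -0.70. PSBO1, PSBO2, PSBP1 and PSBY were positive after scaling to the nuclear sum or quantile normalization, where the medians of all genes were 0.48 and -0.039. With the length trend removed PSBO2, PSBP1, PSBQ1, PSBX and PSBY were positive, and 2 of the 11 were lower and none was higher. Over all genes tested 20.0% were then lower and 20.2% higher. PSBO, PSBP and PSBQ encode the proteins on the lumenal face of photosystem II that shield the water-splitting cluster. PSBQ2 (AT4G05180, chromosome 4, 2671523 to 2673243, 4 exons) had 1888, 1515 and 1580 FPKM in *kaku4* and 3137, 2901 and 3222 FPKM in WT. Its *kaku4* mean was 53.8% of the WT mean with no overlap. The log2 fold change was -0.90 (SE 0.18, adjusted p = 0.00376) and ranged from -1.10 to -0.37 over the 21 alternatives. The other PSBQ gene, PSBQ1, had 2791, 1837 and 1959 FPKM in *kaku4* and 3539, 2886 and 3330 FPKM in WT, for a log2 change of -0.59 (SE 0.23, adjusted p = 0.053). PSBO1 (-0.45), PSBO2 (-0.22) and PSBP1 (-0.25) did not pass the test.

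The small or peripheral subunits of photosystem II made up the other PSB genes that were lower. PSBR (AT1G79040), which helps to hold the lumenal proteins in place, had 16777, 14215 and 19324 FPKM in *kaku4* and 28732, 37720 and 42976 FPKM in WT, for a log2 change of -1.11 (SE 0.34, adjusted p = 0.0221). PSBTN (AT3G21055), a small lumenal subunit, had 7205, 5029 and 6385 FPKM in *kaku4* and 12139, 12238 and 15198 FPKM in WT, for a log2 change of -1.10 (SE 0.27, adjusted p = 0.00848). Neither gene's ranges overlapped, and their *kaku4* means were 46.0% and 47.0% of WT. PSBS (AT1G44575), the sensor that switches the antenna to heat dissipation in strong light, had 1301, 1158 and 1301 FPKM in *kaku4* and 2033, 2006 and 2217 FPKM in WT. Its log2 fold change was -0.74 (SE 0.16, adjusted p = 0.00559), with an adjusted p of at most 0.05 in 19 of the 21 alternatives. PSBW, which stabilises the complex of photosystem II with its antenna, had a log2 change of -0.81 (SE 0.25, adjusted p = 0.0237), and PSBX, a small membrane subunit, of -0.70 (SE 0.25, adjusted p = 0.0411). PSBY, another small membrane subunit, had -0.15 (SE 0.17, adjusted p = 0.474), the smallest change of the group.

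The fold changes of the members followed transcript length, as those of all genes did. Spearman's correlation of log2 fold change with the RefSeq transcript length was 0.49 over 42 members without LHCB1.3 and 0.587 over 20464 genes tested, given as a description, since the genes share the same 6 libraries. The median length was 1202 nucleotides for these members and 1688 nucleotides for all genes tested. The median log2 fold change of all genes ran between -0.85 in the shortest decile (median length 699 nucleotides) and 1.16 in the longest (3717 nucleotides). In the plot of fold change against length, most members lie near the line of all genes, with LHCB4.3, PSAF and PSAD2 farthest above it. LHCA5, LHCA4 and PSBS are among those below it.

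**Figure D2:**
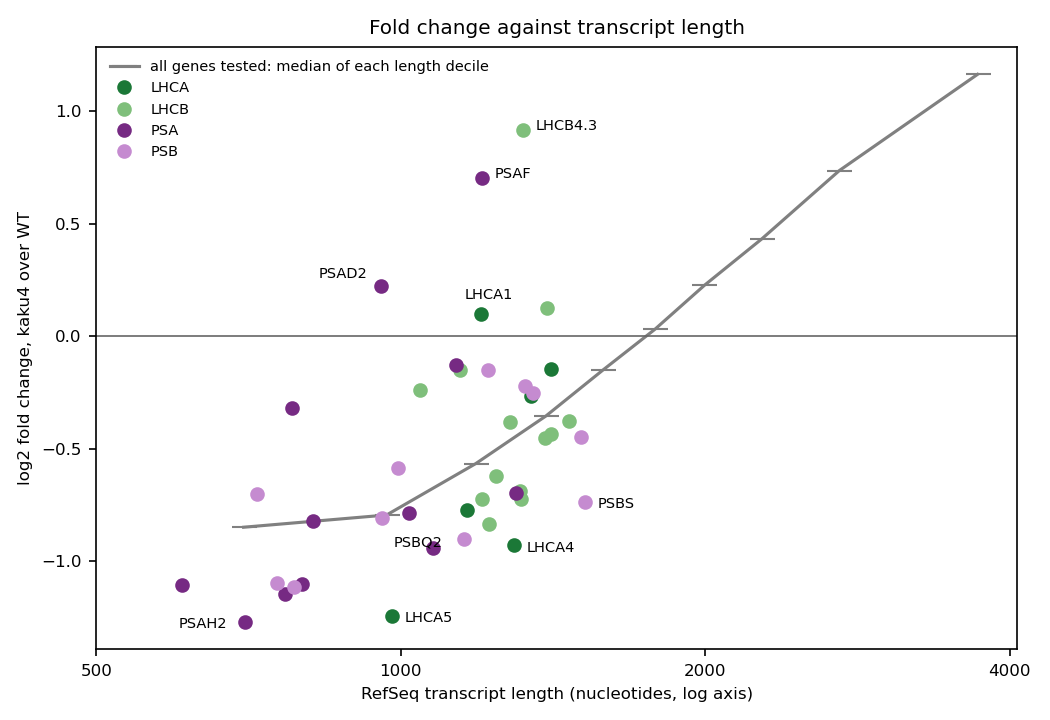
Log2 fold change, *kaku4* over WT, of 42 members against RefSeq transcript length in nucleotides (log axis), coloured by group, with the median of each length decile of all genes tested as a grey line. The grey line rises across the lengths, from -0.85 to 1.16. LHCB4.3 (0.92), PSAF (0.70) and PSAD2 (0.22) stand farthest above it, and LHCA5 (-1.24), LHCA4 (-0.93) and PSBS (-0.74) are among those below.

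With the length trend removed from each library, 4 members passed the adjusted p as lower and 6 as higher, against 20.0% lower and 20.2% higher of all genes tested. The 4 lower were LHCA5 (-0.56, adjusted p = 0.00452), LHCA4 (-0.54, adjusted p = 0.0172), PSBS (-0.55, adjusted p = 0.00713) and PSBQ2 (-0.37, adjusted p = 0.0399). The 6 higher were LHCB4.3 (1.29, adjusted p = 0.000419), PSAF (1.19, adjusted p = 0.000815), PSAD2 (0.93, adjusted p = 0.0011), LHCA1 (0.59, adjusted p = 0.0108), PSAG (0.50, adjusted p = 0.0358) and PSAD1 (0.42, adjusted p = 0.0345). None was then lower by the fold criterion, where 5.21% of all genes were, and LHCB4.3 and PSAF were higher by it, where 7.77% of all genes were. The members' median was -0.15. PSAH2, PSBR, PSBTN, PSAK and both PSAE genes, which are short transcripts of 607 to 798 nucleotides, had values between -0.41 and -0.21 and did not pass. The removal takes out any true change that follows length as well.

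**Figure D3:**
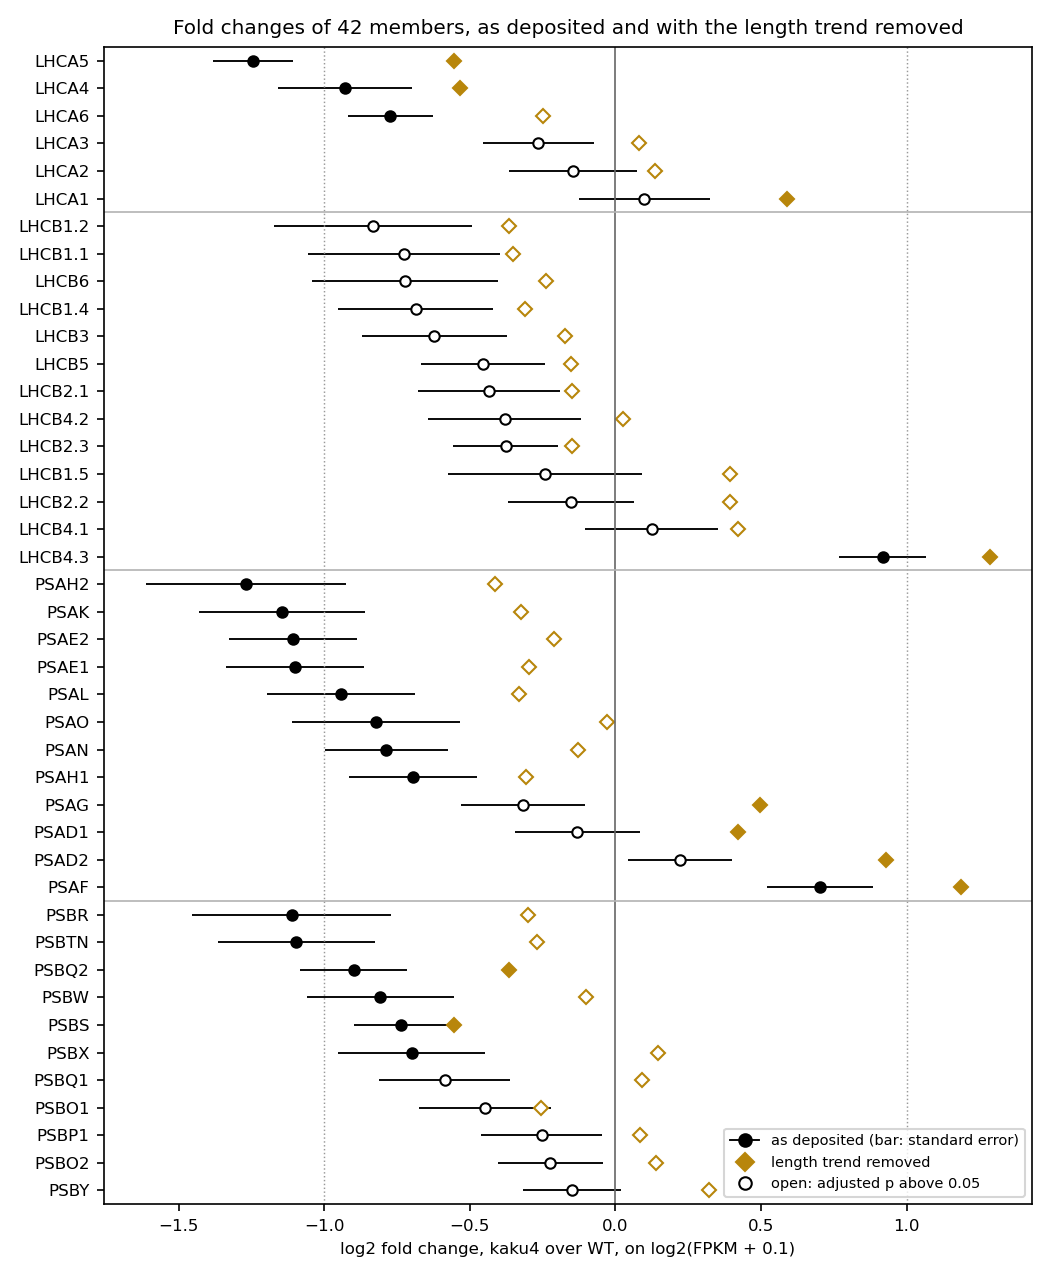
Log2 fold change, *kaku4* over WT, of 42 members as deposited (black circles, bars are the standard error from limma) and with the length trend removed (gold diamonds), with open symbols for an adjusted p above 0.05 and dotted lines at -1 and 1. Nearly all diamonds lie to the right of their circles, and LHCA5, LHCA4, PSBQ2 and PSBS are the 4 that stay filled on the negative side.

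The share of all nuclear FPKM that the 43 genes held depended on LHCB1.3. With it they held 21.4%, 24.0% and 20.7% in *kaku4* and 21.9%, 22.0% and 23.3% in WT. The means were 22.0 ± 1.72% in *kaku4* and 22.4 ± 0.777% in WT (SD, n = 3), a difference of -0.33 percentage points within the spread between libraries (exact two-sided permutation test, p = 0.8, where the smallest possible p is 0.1). The difference was -1.30 without *kaku4* replicate 2, 0.34 without *kaku4* replicate 3 and 0.12 without WT replicate 3, so its sign rested on single libraries. The high *kaku4* library was replicate 2, the one in which LHCB1.3 was listed. With LHCB1.3 taken out of both the members and the nuclear sum, the shares were 20.9 ± 0.459% in *kaku4* and 22.4 ± 0.777% in WT. The difference was -1.45 percentage points with no overlap (exact two-sided permutation test, p = 0.1, the smallest this design can give). In FPKM the members summed to between 209363 and 248304 in *kaku4* and between 310244 and 353487 in WT.

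**Figure D4:**
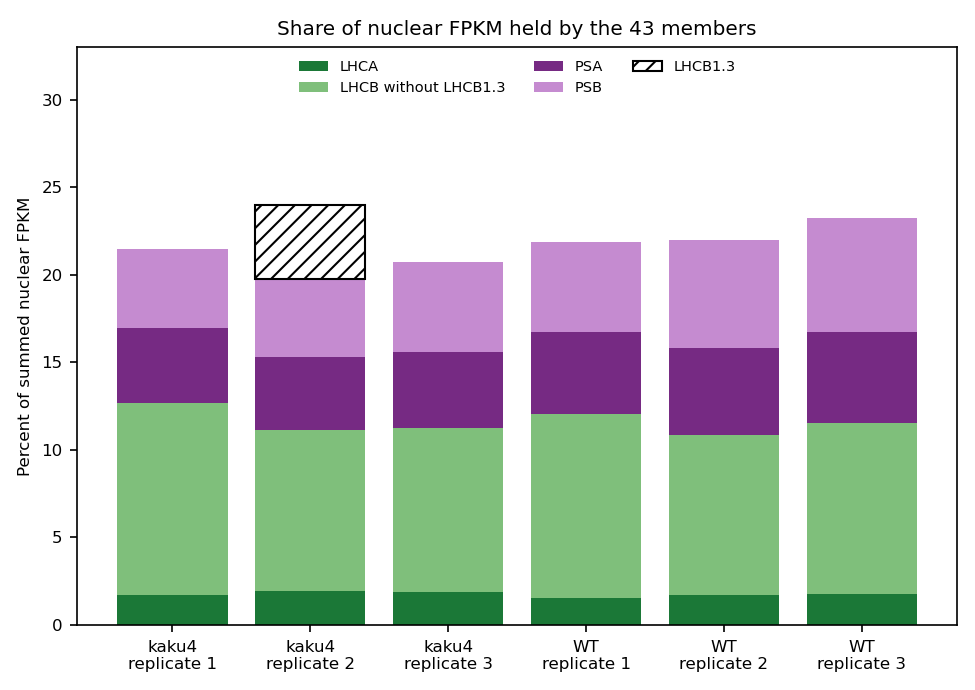
Share of the summed nuclear FPKM held by the 43 genes in each library, as stacked bars by group, with *kaku4* on the left, WT on the right and LHCB1.3 hatched. The totals are 20.7% to 24.0% in *kaku4* and 21.9% to 23.3% in WT. The *kaku4* range without the hatched part of replicate 2 is 19.7% to 21.4% of a nuclear sum that still includes LHCB1.3.

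By group, the PSA genes held 4.29%, 4.13% and 4.34% of nuclear FPKM in *kaku4* and 4.70%, 4.96% and 5.19% in WT, without overlap. The PSB genes held 4.51%, 4.46% and 5.12% in *kaku4* and 5.10%, 6.15% and 6.53% in WT, and overlapped at the edges. The LHCB genes held 10.9%, 13.5% and 9.36% in *kaku4* and 10.5%, 9.18% and 9.77% in WT, overlapping, with LHCB1.3 included. For the LHCA genes the shares were 1.74%, 1.92% and 1.87% in *kaku4* and 1.53%, 1.70% and 1.78% in WT, also overlapping. Neither these group shares nor the differences between groups were tested.

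A ratio of a pair of related genes within a library does not depend on how that library was scaled, and 9 such pairs were compared. In 6 pairs the *kaku4* and WT ratios did not overlap (exact two-sided permutation test on the log2 ratio, p = 0.1 each, the smallest possible, and 0.15 after Benjamini-Hochberg adjustment over 9 pairs), so that none could pass 0.05. PSBO1 stood to PSBO2, which encodes the less abundant form of the same lumenal protein, at 3.44, 3.59 and 3.37 in *kaku4* and at 4.04, 4.05 and 4.06 in WT. PSAD1 stood to PSAD2 at 2.37, 2.37 and 2.47 in *kaku4* and at 3.06, 3.05 and 3.11 in WT. In both pairs the less abundant gene held a larger part in every *kaku4* library than in any WT library.

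Both LHCB4 pairs were among the 6. LHCB4.3 stood to LHCB4.1 at 0.0112 ± 0.000743 in *kaku4* and 0.00647 ± 0.000351 in WT (SD, n = 3), and LHCB4.2 to LHCB4.1 at 0.845 ± 0.0870 in *kaku4* and 1.2 ± 0.114 in WT. LHCB2.2 stood to LHCB2.1 at 0.731 ± 0.0277 in *kaku4* and 0.601 ± 0.0234 in WT, and PSBQ1 to PSBQ2 at 1.31 ± 0.146 in *kaku4* and 1.05 ± 0.0684 in WT. The ratios of PSAE1 to PSAE2, PSAH1 to PSAH2 and LHCB2.3 to LHCB2.1 overlapped between the genotypes (p = 1, 0.3 and 0.5 by the same exact test). For PSAE1 to PSAE2 the ratio was 2.26 ± 0.164 in *kaku4* and 2.25 ± 0.0317 in WT. The genes of a pair differ in transcript length, and the part of length in these ratios was not tested.

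Beyond the subunits, 52 other nuclear genes of the light reactions were read from a set list, of which 33 passed the adjusted p as lower and 3 as higher, against 28.3% and 28.6% of all genes tested, with a median log2 fold change of -0.66. Scaling to the nuclear sum gave 14 lower and 12 higher, where 2234 of the 20618 genes tested were lower and 8676 higher. Quantile normalization gave 14 lower and 13 higher, where 5250 were lower and 5259 higher over all genes. By the fold criterion, where 11.5% of all genes were lower and 16.4% higher, 13 were lower (1 with the length trend removed, 1 after scaling to the nuclear sum, 2 after quantile normalization, 6 without *kaku4* replicate 2 and 8 without WT replicate 3) and 2 higher (0 without *kaku4* replicate 2 and 1 without WT replicate 1). With the length trend removed 20 were lower and 7 higher at the adjusted p, where the shares over all genes were 20.0% and 20.2%, with a median of -0.22. Of the 13, PPL1 (-1.05) alone kept the fold call in that fit, and ATPG (-0.50, adjusted p = 0.101) and CURT1C (-0.34, adjusted p = 0.254) did not pass it at all. Over the list, 11 were lower and 2 higher as deposited and in all 21 alternatives, against the 7.17% and 11.4% of all genes given above. Of the 13 as deposited, 4 were assembly and repair factors, PPL1 (-1.64, SE 0.15, adjusted p = 0.000199), which acts in repair of photosystem II, PSB27 (-1.07), PPL2 (-1.06) and PSA3 (-1.04), an assembly factor of photosystem I. PPL1 had 77.5, 67.7 and 88.9 FPKM in *kaku4* and 246, 268 and 213 FPKM in WT, and was the largest change of the 52.

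Among genes that regulate the thylakoid, PGR5 (-1.34, SE 0.15, adjusted p = 0.00042), needed for cyclic electron flow around photosystem I, PBCP (-1.11), the phosphatase of the photosystem II core, and CURT1C (-1.01), a protein of the curved grana margins, were lower. STN7 (1.03, SE 0.19, adjusted p = 0.00209), the kinase that phosphorylates the trimers so that they move to photosystem I, was higher. PGR5 had 248, 198 and 260 FPKM in *kaku4* and 541, 604 and 640 FPKM in WT, and STN7 had 27, 42.5 and 34.9 FPKM in *kaku4* and 14.3, 17.8 and 18.3 FPKM in WT. Neither gene overlapped between the genotypes. CPSRP54 (1.02, adjusted p = 0.00151), part of the particle that guides light-harvesting proteins to the thylakoid, was the other gene called higher. Its partner CPSRP43 was lower with a log2 fold change of -0.59 (adjusted p = 0.0354), but its ranges overlapped and it passed in 13 of the 21 alternatives. With the length trend removed STN7 (0.73, adjusted p = 0.00591) and CPSRP54 (0.80, adjusted p = 0.00322) passed the adjusted p but not the fold criterion. The 1 pathway gene then called higher was FD2 (1.17, adjusted p = 0.00292), which was at 0.48 as deposited (adjusted p = 0.13).

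Of 9 relatives of the antenna proteins, 7 were lower by the adjusted p and none higher, against 28.3% and 28.6% of all genes. Removing the length trend left 5 lower and none higher, against 20.0% and 20.2% of all genes. It moved the group's median from -0.86 to -0.28. OHP2 (-0.12, adjusted p = 0.664) and SEP2 (-0.043, adjusted p = 0.775) no longer passed in that fit. As deposited, the fold criterion called OHP1 (-1.43, SE 0.24, adjusted p = 0.0015), which binds pigment during assembly of photosystem II. It also called SEP1 (-1.18) and LHCB7 (-1.05), a rare antenna-like gene. ELIP1 (-0.19) and ELIP2 (-0.31), the early light-induced proteins, did not pass as deposited. Among electron carriers PETE2 (-1.04, SE 0.20, adjusted p = 0.00303), the main plastocyanin gene, was lower with 2975, 2531 and 2765 FPKM in *kaku4* and 5302, 5511 and 6197 FPKM in WT, while the minor plastocyanin gene PETE1 had a log2 fold change of 0.22 (adjusted p = 0.211). In the chloroplast ATP synthase ATPG (-1.07) and ATPD (-1.02) were lower and ATPC1 (0.40, adjusted p = 0.0325) was higher. Of the transcription factors that act on photosystem genes, GLK2 was lower (-0.98, SE 0.16, adjusted p = 0.00128), whereas GLK1 (0.25, adjusted p = 0.14) and HY5 (-0.15, adjusted p = 0.329) did not pass. GLK2 had 234, 207 and 241 FPKM in *kaku4* and 380, 450 and 522 FPKM in WT.

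The core proteins to which all these subunits attach are encoded in the chloroplast, and their FPKM values were low. For psaA, the gene of a reaction centre protein of photosystem I, the table listed 4.37, 2.03 and 2.36 FPKM in *kaku4* and 0.763, 1.3 and 0.867 FPKM in WT, and for psbA, the gene of the D1 protein of photosystem II, 34.2, 136 and 210 FPKM in *kaku4* and 38.5, 294 and 103 FPKM in WT. The psbA value was lowest in replicate 1 of both genotypes, and these chloroplast values were not tested.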

How the data were processed

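RNA-seq libraries from rosette leaves of *kaku4* and WT plants (3 each) were analysed from the table of FPKM values that the authors deposited. The authors aligned reads to TAIR10 with TopHat2 (2.0.9) and calculated FPKM with Cufflinks, which scales fragments by transcript length and mapped fragments. The table gives no read counts per gene, so precision rests on the spread of 3 libraries. The paper lists the total and mapped reads of each library, which were not used here. Of 24492 loci, 1442 held no value and were left out. From the deposited values, log2(FPKM + 0.1) was fitted for 20618 genes of mean FPKM 0.1 or more with limma 3.58.1 in R 4.3.3 (eBayes with trend, no covariates) and adjusted over all of them by Benjamini-Hochberg. Fold changes are on that scale. Calls used the study's log2 fold change of 1 with an adjusted p of 0.05, or the latter alone.

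Lengths, coordinates, promoters and coding sequences came from RefSeq's TAIR10.1, matched by locus. All 43 members and 20464 genes tested had a length. Trends were removed in each library by lowess (span 0.4). Shares and ratios used exact permutation tests (SciPy 1.17.1). The fit was tested on simulated data, where the fold criterion recovered 69% of 200 changed genes and called 6 unchanged genes. Genes named are the members, called pathway genes and markers, the largest pathway changes and KAKU4. Others named for contrast (PETE1, CPSRP43, FD2, ELIP1, ELIP2, ATPC1, GLK1, HY5, psaA, psaB, psbA, psbB, psbC, psbD, RBCS1B, RBCS2B, RBCS3B, CA1, KAT1, HT1, CASP1) were picked after their values were seen. Members and lists were chosen with earlier results of these data known. The ChIP-seq samples were not analysed here. LHCB1.3 was set aside in 1 alternative added after its values were seen.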

Additional observations from a re-analysis of the deposited data

How the results depend on the processing

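Each fit across genes was repeated under 21 alternatives, 20 of them planned and 1, without LHCB1.3, added after its values were seen. FPKM values hold no counts per gene, and the calls rest on 3 libraries per genotype. The cause of the changes below was not tested beyond what each alternative does by construction. The calls over all genes under each scaling and with the length trend removed are given above. With the length trend removed, members called lower with the fold change numbered 0 and higher 2, lower at the adjusted p alone 4 and higher 6, below WT in every library 10 and above 11. The medians were then -0.15 for all members, -0.083 for LHCA, -0.15 for LHCB, -0.17 for PSA and -0.10 for PSB, pathway genes called lower and higher with the fold change numbered 1 and 1, and at the adjusted p 20 and 7. The log2 fold change turned round for LHCA2 (0.14), LHCA3 (0.081), LHCB1.5 (0.39), LHCB2.2 (0.39), LHCB4.2 (0.027), PSAD1 (0.42), PSAG (0.50), PSBO2 (0.14), PSBP1 (0.085), PSBQ1 (0.091), PSBX (0.14) and PSBY (0.32). With the libraries scaled to the same nuclear sum the corresponding counts of members were 0 and 2, 9 and 8, and 12 and 14, the medians -0.11, -0.0048, 0.11, -0.29 and -0.19, and the pathway counts 1 lower with the fold change and 14 and 12 at the adjusted p. LHCA2 (0.37), LHCA3 (0.25), LHCB1.5 (0.27), LHCB2.1 (0.079), LHCB2.2 (0.36), LHCB2.3 (0.14), LHCB4.2 (0.13), LHCB5 (0.059), PSAD1 (0.38), PSAG (0.20), PSBO1 (0.066), PSBO2 (0.29), PSBP1 (0.26) and PSBY (0.36) turned round. Quantile normalization gave 0 and 2, 6 and 9, and 10 and 13 members, medians of -0.039, -0.031, 0.14, -0.23 and -0.15, and pathway counts of 2 and 4 with the fold change and 14 and 13 at the adjusted p. LHCA2 (0.31), LHCA3 (0.21), LHCB1.5 (0.32), LHCB2.1 (0.14), LHCB2.2 (0.43), LHCB2.3 (0.22), LHCB3 (0.011), LHCB4.2 (0.15), LHCB5 (0.035), PSAD1 (0.39), PSAG (0.20), PSBO1 (0.11), PSBO2 (0.44), PSBP1 (0.20) and PSBY (0.49) turned round. Centring the libraries gave 12 members lower with the fold change, 1 higher at the adjusted p, medians of -0.82, -0.71, -0.60, -1.0 and -0.90 and 0 pathway genes higher with the fold change, and turned LHCA1 (-0.10) and LHCB4.1 (-0.072). Removing the GC trend gave 15 members lower with the fold change, 30 lower and 1 higher at the adjusted p, 0 pathway genes higher with the fold change and medians of -0.82 for all members, -0.91 for LHCA, -0.70 for LHCB and -0.96 for PSB, and turned LHCA1 (-0.19), LHCB4.1 (-0.055) and PSAD2 (-0.14). Without a filter on low values 11 members were lower at the adjusted p, and with a pseudocount of 1 no pathway gene was higher with the fold change (0). None of the turned values belongs to a member past the threshold as deposited except PSBX. Leaving out each library in turn gave 3 to 10 members lower and 0 to 1 higher with the fold change, 8 to 23 lower and 1 to 2 higher at the adjusted p, and 29 to 36 below and 3 above WT in every library. It gave 6 to 15 pathway genes lower and 0 to 2 higher with the fold change. The difference in share ranged from -1.30 to 0.34 percentage points, the log2 fold change of LHCB4.1 from -0.0028 to 0.20, the log2 ratio of PSAE1 to PSAE2 from -0.047 to 0.058 and that of LHCB2.3 to LHCB2.1 from -0.020 to 0.14. Where 1 arm kept 2 libraries, the spread was pooled over both genotypes. The replicate numbers are shared between the genotypes, and the deviations of same-numbered libraries correlated at 0.305, 0.0821 and 0.00608. Replicate 1 of *kaku4* correlated best with WT replicate 1, and at -0.21 and -0.20 with WT replicates 2 and 3. Replicates 2 and 3 of *kaku4* correlated best with other numbers, so the numbers were not taken to pair the libraries. The fit as deposited thus holds no term for anything that the replicate 1 libraries share. A replicate block gave 7 members lower with the fold change and 22 lower and 2 higher at the adjusted p. The replicate block with length trend removed gave 0 and 2, 9 and 10, and 10 and 11 members, medians of -0.15, -0.083, -0.15, -0.17 and -0.10, 1 and 1 pathway genes with the fold change and 12 higher at the adjusted p, and the same turned values as the length fit without the block. In the other fits, those with another eBayes model, filter or pseudocount, replicates 2 and 3 only or without LHCB1.3, no member turned round.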
